A study of Homo sapiens with 3 samples.

Results

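The hypoxia-inducible factors HIF1A and EPAS1 and 8 of their direct targets, CA9, VEGFA, ADM, BNIP3, NDRG1, EGLN3, ANKRD37 and KDM3A, were followed in 3 stable derivatives of PANC-1, a long-established carcinoma line from a human pancreatic duct. Members were taken by name, as every probe set that the platform annotation assigns to such a gene alone. That gave 18 of the 54613 probe sets and 9 of the 19775 genes on the array. No probe set was assigned to CA9 alone or with another gene, so CA9 was not analysed here. Glycolytic targets of the factors were left aside.

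Per the labels, the lines expressed wild-type JMJD3, expressed a mutant JMJD3, or contained the blank MSCV vector as control, and no further treatment was given. JMJD3 is the protein of KDM6B, which removes methyl groups from a repressive mark on histone H3. The labels name neither the mutation nor the oxygen level of the cultures, and do not say whether a line was a clone or a pool. Total RNA of each line was hybridised to 1 Affymetrix array that reads transcripts near their 3′ end. With 1 array per line there was no replicate error to set against a difference, so no test was run. The spread of all genes between the same arrays is given in its place.

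HIF1A and EPAS1 encode the oxygen-labile alpha subunits HIF-1α and HIF-2α. In oxygenated cells prolyl hydroxylases of the EGLN family mark these subunits, the VHL ubiquitin ligase recognises the mark, and the subunit is degraded. When oxygen is scarce the subunits escape, pair with the beta subunit ARNT and bind hypoxia response elements near their targets. The control acts mainly on the protein, so a transcript level of HIF1A or EPAS1 is not a measure of HIF activity. The targets supply blood vessel growth factors, mitochondrial turnover and feedback. In pancreatic carcinoma, which is poorly perfused, these genes are widely studied.

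The core of a hypoxia response element reads ACGTG or GCGTG, and the stretches below show where those letters lie before the RefSeq transcription starts of the 5 genes that differed most between the arrays. Both core forms were searched on both strands in the 250 bases before each start (RefSeq, GRCh38.p14). ACGTG and its reverse complement CACGT overlap in the palindrome CACGTG, which then counts as a match on each strand. Sequences run 5′ to 3′ on the strand of the gene, and capitals mark the matches, with the genes' reverse-strand matches shown as CACGT or CACGC.
HIF1A: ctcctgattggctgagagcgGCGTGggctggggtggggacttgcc
EPAS1: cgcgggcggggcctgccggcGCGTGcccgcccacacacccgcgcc
BNIP3: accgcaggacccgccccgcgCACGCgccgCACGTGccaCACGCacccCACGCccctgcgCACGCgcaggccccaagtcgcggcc
ANKRD37: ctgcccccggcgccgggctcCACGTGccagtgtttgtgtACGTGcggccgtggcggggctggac
KDM3A: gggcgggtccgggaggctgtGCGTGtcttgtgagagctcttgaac

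The stretch of HIF1A lies at chr14:61695289-61695333 on the plus strand, with its match 204 bases before the first of its listed starts. The window before the second start of HIF1A holds neither core form. That of EPAS1 is chr2:46297270-46297314 on the plus strand, with the match at 117 bases. BNIP3 is read from the minus strand at chr10:131982003-131982086. Its stretch holds the palindrome CACGTG, which begins 134 bases before the start, among 4 reverse-strand copies of GCGTG. ANKRD37, at chr4:185396659-185396722 on the plus strand, has the palindrome at 162 bases and a further ACGTG at 143 bases. In KDM3A the stretch is chr2:86441325-86441369 on the plus strand, with a single GCGTG at 26 bases before the first of its listed starts. Of the 10 genes, 8 had an entry in the promoter table. ACGTG was found in 3 of them (ANKRD37, BNIP3 and CA9) and GCGTG in 5 (ADM, BNIP3, EPAS1, HIF1A and KDM3A). Among all 35116 promoters of that length in the table, 18.5% held ACGTG and 32.2% GCGTG on either strand. These shares count promoters, while the counts above are of genes, and the 8 genes had 10 promoters between them. A match describes the letters only, and for EGLN3 neither form lies in this window.

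Signals are log2 values, and the floor for dim signals was the pooled median of all values, log2 5.48. A gene counted as measured when at least 1 of the arrays compared was over that floor, and the probe set with the highest mean stood for the gene. Of the 18 probe sets, 13 were over the floor in all 3 arrays, 1 in a single array and 4 in none. For 8 of the 9 genes the chosen probe set was over the pooled 75th percentile (log2 7.59) in every array, and EGLN3 was the dim exception. In 4 probe sets the deposited value was identical in all arrays, as it was for 21% of the probe sets on the array. Equal values are thus no evidence of equal transcript levels.

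**Figure D1:**
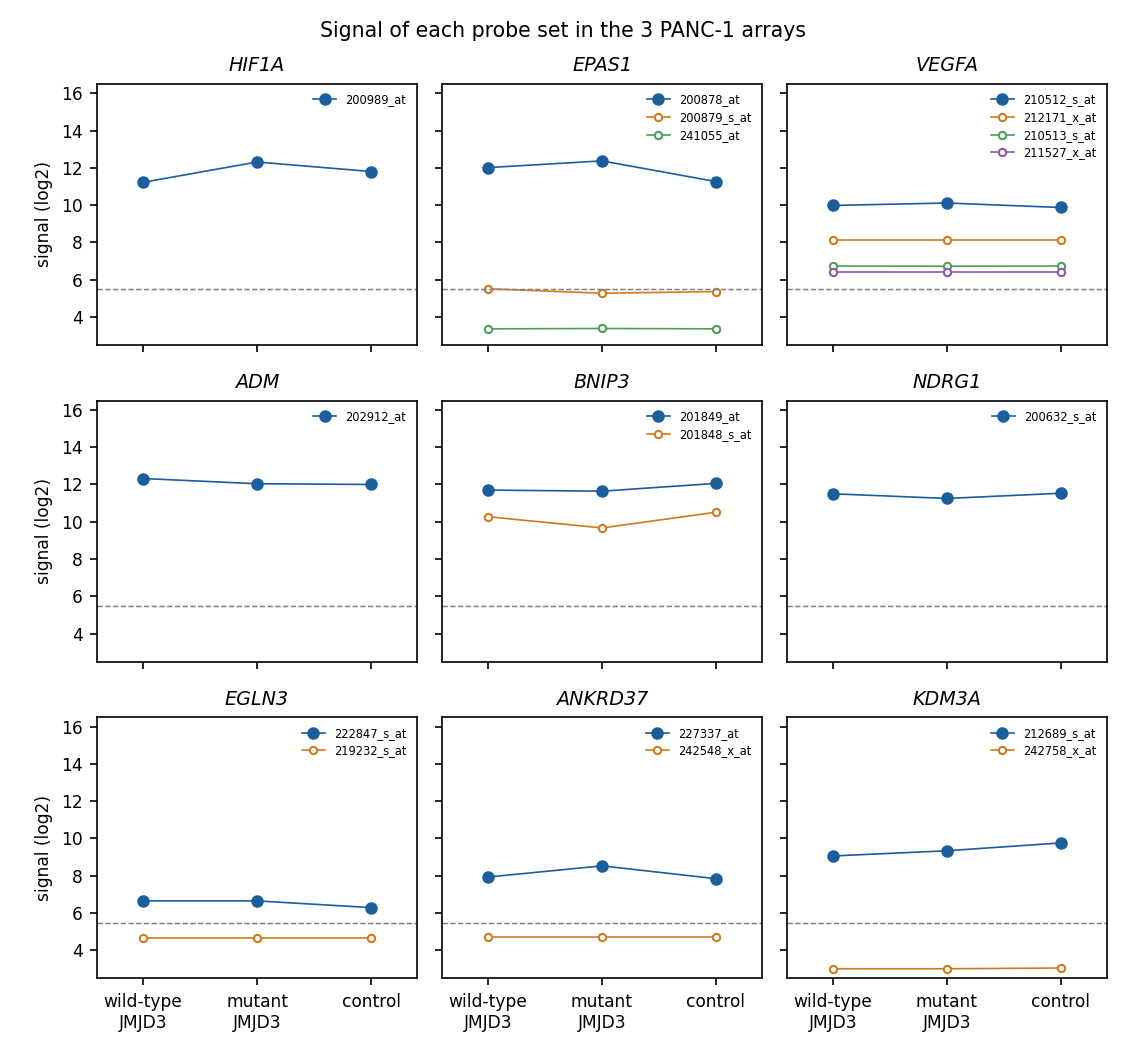
Log2 signal (vertical axis) of each of the 18 probe sets in the wild-type JMJD3, mutant JMJD3 and control arrays (horizontal axis, 1 array each), with a panel per gene. Filled points are the probe set that stands for its gene, lines join the values of 1 probe set, and the dashed line is the floor at 5.48. HIF1A and EPAS1 have the widest ranges, 1.09 and 1.11, and the lower probe sets of VEGFA, EGLN3 and ANKRD37 are flat.

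The introduced gene had 5 probe sets of KDM6B that did not agree. Probe set 1556067_a_at gave 6.73 with wild-type JMJD3, 6.45 with mutant JMJD3 and 5.53 in control. In the same direction, 1556066_at gave 6.75 with wild-type JMJD3, 6.51 with mutant JMJD3 and 6.02 in control. By contrast 41387_r_at gave 7.66 with wild-type JMJD3, 7.65 with mutant JMJD3 and 7.60 in control. Probe set 41386_i_at lay between 6.88 and 6.99, and 213146_at read 5.12 in all arrays, under the floor. The sources do not place these probes on the introduced construct, so the flat probe sets check neither label.

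Markers of ductal epithelium were over the floor for 6 of 7 genes and moved between the arrays in both directions. KRT18 gave 13.47 with wild-type JMJD3, 12.83 with mutant JMJD3 and 13.40 in control, and MUC1 was at 10.33 or higher throughout at its brightest probe set. KRT7 gave 10.80 with wild-type JMJD3, 9.16 with mutant JMJD3 and 9.66 in control, 3.12-fold higher with wild-type than with mutant. KRT8 gave 11.97 with wild-type JMJD3, 10.67 with mutant JMJD3 and 11.76 in control, 2.46-fold higher with wild-type than with mutant. KRT19 gave 8.0 with wild-type JMJD3, 7.73 with mutant JMJD3 and 5.55 in control, so it was lowest in control. EPCAM ran the other way, with 5.83 for wild-type JMJD3, 7.07 for mutant JMJD3 and 6.17 in control. Its wild-type signal was 2.36-fold below its mutant signal. CDH1 read 4.62 in all arrays, under the floor. The log2 of the summed signal of the list was 14.21 with wild-type JMJD3, 13.44 with mutant JMJD3 and 14.05 in control.

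Of 5 fibroblast markers 3 were over the floor in some array, and LUM and COL3A1 in none. PDGFRB gave 7.46 with wild-type JMJD3, 6.23 with mutant JMJD3 and 6.86 in control, 2.35-fold higher with wild-type than with mutant. COL1A1 gave 10.69 with wild-type JMJD3, 10.38 with mutant JMJD3 and 10.16 in control, and DCN lay between 5.68 and 5.86. All 3 exceeded control in the wild-type JMJD3 array, and the log2 summed signal was 10.90 with wild-type JMJD3, 10.54 with mutant JMJD3 and 10.38 in control. Of 5 endothelial markers PECAM1 (6.27 to 6.28) and TEK (5.43 to 5.85) reached over the floor, while CDH5, VWF and CLDN5 did not. None of the 4 leukocyte markers or the 4 acinar and endocrine markers with a probe set was over the floor in any array. The arrays thus differed in epithelial and fibroblast marker genes as well as in the hypoxia genes, and the part of these markers in the differences below was not tested.

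The factors themselves differed most among the 9 genes. EPAS1 was higher with either form of JMJD3 than in control, whereas HIF1A was lower with wild-type JMJD3 and higher with mutant JMJD3. EPAS1 at 200878_at gave 12.01 with wild-type JMJD3, 12.37 with mutant JMJD3 and 11.26 in control. It was 2.16-fold higher with the mutant than in control, and 1.68-fold higher with wild-type than in control. The remaining EPAS1 probe sets could not check this, since 241055_at lay between 3.36 and 3.38 and 200879_s_at gave 5.51 with wild-type JMJD3, 5.27 with mutant JMJD3 and 5.36 in control, at or near the floor. When the median of its 3 probe sets was used instead, EPAS1 was under the floor in the mutant and control arrays and gave no difference between them. Wild-type over control then gave 0.03.

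HIF1A had a single probe set, 200989_at, which gave 11.22 with wild-type JMJD3, 12.31 with mutant JMJD3 and 11.80 in control. Its signal was highest with the mutant and lowest with wild-type, with control between them. The wild-type array was 2.13-fold lower than the mutant array, and 1.49-fold lower than control. The mutant array exceeded control 1.42-fold. Between wild-type and mutant, 6.7% of 12829 measured genes differed by at least as much as HIF1A, and between mutant and control 2.55% of 12707 measured genes differed by at least as much as EPAS1.

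Genes of similar profile to EPAS1, the gene with the widest range, were sought among 8582 bright genes by the Euclidean distance between values centred on their own mean. The nearest were ZNF226 (distance 0.037), DHRS1 (0.057) and ETNPPL (0.064). ETNPPL gave 8.57 with wild-type JMJD3, 8.84 with mutant JMJD3 and 7.77 in control. Over 3 arrays such likeness rests on very few values.

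Of the secreted targets, VEGFA, the main growth factor of blood vessels, and ADM, the vasodilator peptide adrenomedullin, differed little. VEGFA at 210512_s_at gave 9.98 with wild-type JMJD3, 10.11 with mutant JMJD3 and 9.87 in control, so the mutant array was 1.18-fold higher than control and the wild-type array 1.08-fold. Its other 3 probe sets, 212171_x_at, 210513_s_at and 211527_x_at, varied by at most 0.01 over the arrays, at levels near 8.15, 6.73 and 6.40. ADM gave 12.32 with wild-type JMJD3, 12.04 with mutant JMJD3 and 12.00 in control. The wild-type array stood 1.25-fold above control, and mutant and control were 0.04 apart.

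BNIP3, which marks mitochondria for removal by autophagy, was lower with either form of JMJD3 than in control at both of its probe sets. At 201849_at it gave 11.70 with wild-type JMJD3, 11.64 with mutant JMJD3 and 12.06 in control. At 201848_s_at it gave 10.27 with wild-type JMJD3, 9.67 with mutant JMJD3 and 10.51 in control. The mutant array was 1.34-fold lower than control at the first and 1.79-fold lower at the second, and the wild-type array was 1.28-fold and 1.18-fold lower. BNIP3 was the only member with 2 bright probe sets that both varied, and they gave different sizes for wild-type over mutant, 0.06 and 0.60 on the log2 scale.

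NDRG1, a cytoplasmic stress-response protein gene linked to differentiation, gave 11.50 with wild-type JMJD3, 11.25 with mutant JMJD3 and 11.53 in control. Wild-type and control were 0.03 apart, and the mutant array was 1.21-fold lower than control. EGLN3, a prolyl hydroxylase that is induced by HIF and acts back on it, gave 6.65 in both JMJD3 arrays and 6.29 in control at 222847_s_at, 1.28-fold higher than control. This is the dimmest of the 9 genes, and its other probe set read 4.67 in all arrays, under the floor.

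ANKRD37, a small ankyrin repeat protein gene, stood out only in the mutant array. At 227337_at it gave 7.93 with wild-type JMJD3, 8.53 with mutant JMJD3 and 7.84 in control. The mutant array was 1.61-fold higher than control, and the wild-type array was 1.06-fold higher than control and 1.52-fold lower than mutant. Its other probe set read 4.72 in every array.

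KDM3A, a demethylase of histone H3 that like JMJD3 carries a JmjC domain, was lower than control in both JMJD3 arrays. At 212689_s_at it gave 9.06 with wild-type JMJD3, 9.34 with mutant JMJD3 and 9.76 in control. That is 1.62-fold lower with wild-type and 1.34-fold lower with mutant. The other probe set lay between 3.01 and 3.05, under the floor.

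Against control the genes did not share a direction. With wild-type JMJD3, 5 of the 9 were higher and 4 lower, where 54.4% of all 12697 measured genes were higher and 34.2% lower by any amount. None of the 9 reached 2-fold, as 2.26% of all measured genes did in either direction, with 0.953% higher and 1.31% lower. The median over the 9 genes was 0.09 on the log2 scale, beside 0.05 over all measured genes. EPAS1 at 0.75 and KDM3A at -0.70 were the extremes, and 90 percent of all genes lay between -0.74 and 0.65.

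With mutant JMJD3, 6 of the 9 were higher than control and 3 lower, where 45.9% of all measured genes were higher and 41.2% lower. EPAS1 alone reached 2-fold, beside 2.98% of 12707 measured genes that were higher by 2-fold or more and 0.535% that were lower. The median was 0.24, beside 0.00 over all genes. EPAS1 (1.11) lay above the upper end of the range that held 90 percent of all genes, -0.50 to 0.81, while ANKRD37 (0.69) and HIF1A (0.51) lay inside it.

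Comparing the JMJD3 arrays directly, 3 genes had the higher signal in the wild-type array, 5 had the lower and EGLN3 was equal, where 49.7% of all measured genes were higher and 40.5% lower. HIF1A alone reached 2-fold, beside 6.2% of 12829 measured genes that were lower by 2-fold or more and 2.61% that were higher. The median was -0.13, beside 0.00 over all genes, and the range of 90 percent of genes ran from -1.07 to 0.83. Both comparisons with control use the same control array. At 1.5-fold, 2 of the 9 genes passed in wild-type over control (EPAS1 and KDM3A), beside 16.2% of all measured genes, and 2 in mutant over control (EPAS1 and ANKRD37), beside 12.9%. In wild-type over mutant HIF1A and ANKRD37 passed 1.5-fold, beside 27.2%.

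Probe sets of 1 gene show how far 2 readings of such a difference can lie apart on the same arrays. They share the same RNA and arrays, so the gap holds no variation between arrays or cultures. Over 5791 genes with 2 or more probe sets over the floor in both arrays, the 2 brightest gave mutant over control differences that lay a median of 0.20 apart, and 0.70 apart at the 90th percentile. For wild-type over control these gaps were 0.18 and 0.57, and for wild-type over mutant 0.25 and 0.93. Only EPAS1, KDM3A and HIF1A, 3 of the 9 genes, were over the 90th percentile of that gap in wild-type over control, and HIF1A narrowly so (-0.58 against a gap of 0.57). In mutant over control EPAS1 alone was over it, and ANKRD37 (0.69), HIF1A (0.51), BNIP3 and KDM3A (-0.42 each) were under it. In wild-type over mutant HIF1A alone was over it. At the probe sets that stand for them, VEGFA, ADM, NDRG1, EGLN3 and BNIP3 were under it in all 3 comparisons. The other BNIP3 probe set, 201848_s_at, gave -0.84 in mutant over control, over the gap of 0.70, so this depends on the probe set chosen.

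**Figure D2:**
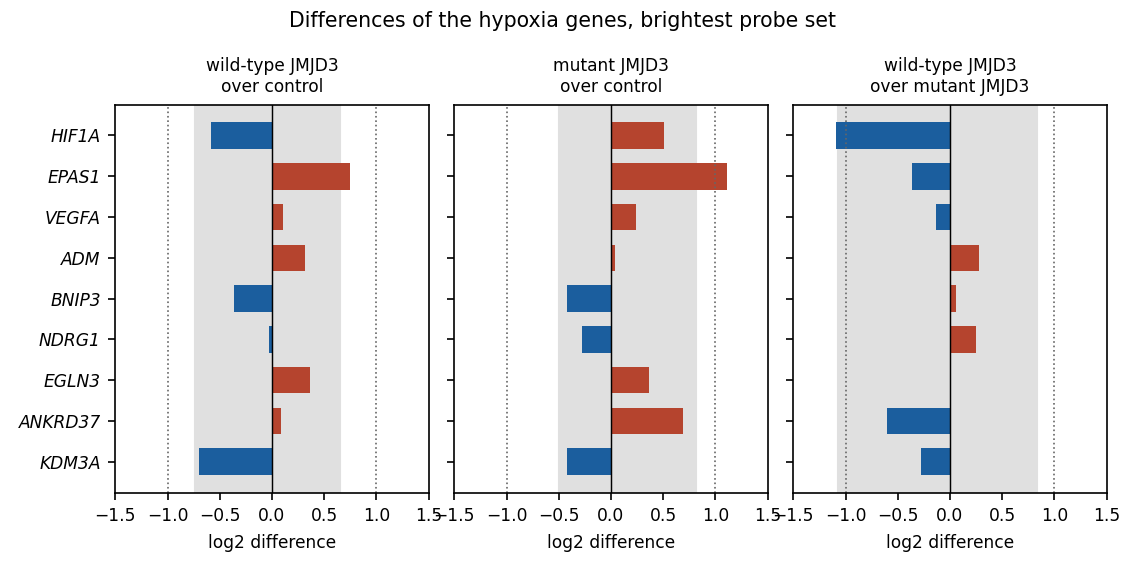
Log2 difference (horizontal axis) of the 9 genes (vertical axis) at the probe set that stands for each, for wild-type JMJD3 over control, mutant JMJD3 over control and wild-type JMJD3 over mutant JMJD3. Bars start at 0 and each rests on 1 array per line, the grey band holds the middle 90 percent of all measured genes, and dotted lines mark 2-fold. EPAS1 in mutant over control (1.11) and HIF1A in wild-type over mutant (-1.09) pass the dotted lines.

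The machinery that acts on the factors was represented by 16 genes, all with a probe set. Of 14 measured in wild-type JMJD3 over control, 8 were higher and 5 lower, where 54.4% of all measured genes were higher and 34.2% lower. CITED2, which competes with HIF alpha subunits for the coactivators, was the only gene of the list at 2-fold, beside 2.26% of all measured genes. CITED2 at 209357_at gave 10.06 with wild-type JMJD3, 9.35 with mutant JMJD3 and 8.76 in control, 2.46-fold higher with wild-type than in control. At 207980_s_at the same comparison gave 2.79-fold higher, and the third, 227287_at, lay near the floor and differed by 0.14. With mutant JMJD3, 5 of 14 measured genes were higher than control and 7 lower, beside 45.9% and 41.2% of all measured genes. None of the 14 reached 2-fold, beside 3.52% of all measured genes. The list medians were 0.045 for wild-type over control and -0.035 for mutant over control, close to those of all genes.

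The hydroxylases EGLN1 and HIF1AN had higher signals in the wild-type JMJD3 array than in the mutant array. At the probe sets that stand for them, 56.1% of all measured genes differed at least as far as EGLN1. For HIF1AN that share was 19.9%. EGLN1, the principal HIF prolyl hydroxylase, had 3 measured probe sets that gave wild-type over mutant differences of 0.27, 1.27 and 1.40. The smallest belongs to the brightest of them, 223046_at (11.23 with wild-type JMJD3, 10.96 with mutant JMJD3 and 11.52 in control), which stands for the gene. Probe set 221497_x_at gave 9.50 with wild-type JMJD3, 8.23 with mutant JMJD3 and 9.0 in control. All 3 were lower with the mutant than in control, but they disagreed on wild-type against control, which was 1.22-fold lower at the first and 1.41-fold and 1.48-fold higher at the others.

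HIF1AN, the asparaginyl hydroxylase that limits the transcriptional activity of HIF alpha subunits, differed in the same direction, by 1.64-fold at 226648_at. There it gave 8.98 with wild-type JMJD3, 8.27 with mutant JMJD3 and 8.66 in control. Its other 2 probe sets gave differences of 0.59 and 0.46 in the same direction. The coactivator CREBBP gave 10.08 with wild-type JMJD3, 9.22 with mutant JMJD3 and 10.01 in control, 1.82-fold higher with wild-type than with mutant. Over the 13 genes of this list measured in wild-type over mutant, 9 were higher and 3 lower, with a median of 0.06. Of all measured genes 49.7% were higher and 40.5% lower. ARNT, the shared beta subunit, was 1.27-fold higher than control with wild-type and 1.17-fold with mutant JMJD3 at its brightest probe set. Its other 3 measured probe sets disagreed on the mutant, which was 2.20-fold higher than control at 230619_at, 1.36-fold higher at 231016_s_at and 1.21-fold lower at 218222_x_at. In the wild-type JMJD3 array CUL2, the scaffold of the VHL ligase, was 1.68-fold below control and EP300 1.26-fold below, and VHL read 7.30 in all arrays.

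A wider set of 38 HIF targets outside glycolysis had 35 genes with a probe set and 34 measured in each comparison. With wild-type JMJD3, 17 were higher than control and 14 lower, around a median of 0.045. Of all measured genes 54.4% were higher and 34.2% lower, with a median of 0.05, and 2.26% reached 2-fold in either direction. PLOD2, which hydroxylates collagen lysines, was the only target of the set at 2-fold. It gave 8.70 with wild-type JMJD3, 9.87 with mutant JMJD3 and 9.91 in control. It was 2.31-fold lower with wild-type than in control and 2.73-fold lower at its other probe set. Both are shared probe sets (_s_at), and without shared probe sets PLOD2 had no value and CA12 at 203963_at (2.19-fold higher) was the only gene at 2-fold. CA12, a membrane carbonic anhydrase related to CA9, exceeded control 1.88-fold with wild-type JMJD3 and 1.54-fold with mutant JMJD3. It went the same way in all 5 of its probe sets over the floor. LOX, which crosslinks collagen, was as far from control in the other direction, 1.87-fold lower with wild-type JMJD3 at 215446_s_at, but its second measured probe set gave 0.14.

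With mutant JMJD3, 14 of those targets were higher than control and 19 lower, with a median of -0.075. Of all measured genes 45.9% were higher and 41.2% lower. TMEM45A, a transmembrane protein gene induced by hypoxia, was 3.20-fold lower, and gave 10.25 with wild-type JMJD3, 9.07 with mutant JMJD3 and 10.75 in control. LOX was 2.28-fold lower, with -0.98 at its second measured probe set. BHLHE41, a transcriptional repressor of the circadian clock, was 2.45-fold higher (6.64 with wild-type JMJD3, 7.54 with mutant JMJD3 and 6.25 in control). The other 3 probe sets of BHLHE41 were under the floor in every array. P4HA1, a collagen prolyl hydroxylase subunit, was 1.67-fold lower. So 1 target passed 2-fold upward and 2 downward. Of all measured genes 2.98% did so upward and 0.535% downward, 3.52% in either direction.

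Wild-type over mutant gave the most 2-fold differences in that set, with 6 of 34 genes, beside 8.81% of all measured genes. TMEM45A (2.27-fold) and P4HA2 (2.10-fold) were higher with wild-type, and PLOD2 (2.25-fold), MXI1, a repressor of MYC activity (2.10-fold), STC2, a secreted glycoprotein gene (2.04-fold), and BNIP3L, the mitophagy receptor closest to BNIP3 (2.03-fold), were lower. By any amount, 22 genes were higher and 10 lower, with a median of 0.23. Of all measured genes 49.7% were higher and 40.5% lower, with a median of 0.0. The second measured probe sets of BNIP3L (0.48) and STC2 (0.22) went the other way and that of P4HA2 was level, while PLOD2 kept its direction (-1.23). MXI1 and TMEM45A had a single probe set.

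The closest relatives of the 9 genes differed among themselves. JMJD1C, the relative of KDM3A, was lower than control with wild-type JMJD3 (1.84-fold) and with mutant JMJD3 (1.41-fold), as KDM3A was, at all 3 of its probe sets over the floor, whereas KDM3B differed from control by 0.05 and -0.03. CA2, a relative of CA9, was over the floor only with mutant JMJD3, at 5.98. In the mutant array NDRG3 was 1.97-fold above control, where NDRG1 was lower, and its other measured probe sets gave 0.01 and 0.77. BNIP3L gave 10.47 with wild-type JMJD3, 11.49 with mutant JMJD3 and 11.34 in control at 221478_at, with the mutant array highest, where BNIP3 was lowest. At 221479_s_at, it gave 10.56 with wild-type JMJD3, 10.08 with mutant JMJD3 and 10.91 in control, the order that BNIP3 had.

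Among partners of the secreted targets the largest difference belonged to NRP1 and was not shared by its second measured probe set. At 212298_at NRP1, a coreceptor of VEGFA, was below control by 2.08-fold with wild-type JMJD3 and by 1.85-fold with mutant JMJD3, but 210510_s_at gave 0.15 and -0.22. PGF, a placental member of the VEGF family, was 1.80-fold and 1.38-fold lower at a probe set shared with other transcripts, and its second measured probe set differed by 0.10 and -0.05. KDR, the main receptor of VEGFA, and CALCRL, the receptor of adrenomedullin, were under the floor in all arrays. VEGFB was 1.45-fold higher with wild-type than in control, and FLT1 1.20-fold lower. RAMP1, VEGFC and FLT4 lay near or under the floor, with no signal over 5.90. Of the 9 genes of this list measured in each comparison with control, 3 were higher and 4 lower with wild-type JMJD3, and 2 were higher and 6 lower with mutant JMJD3. Of all measured genes 54.4% and 45.9% were higher in those comparisons, and 34.2% and 41.2% lower.

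**Figure D3:**
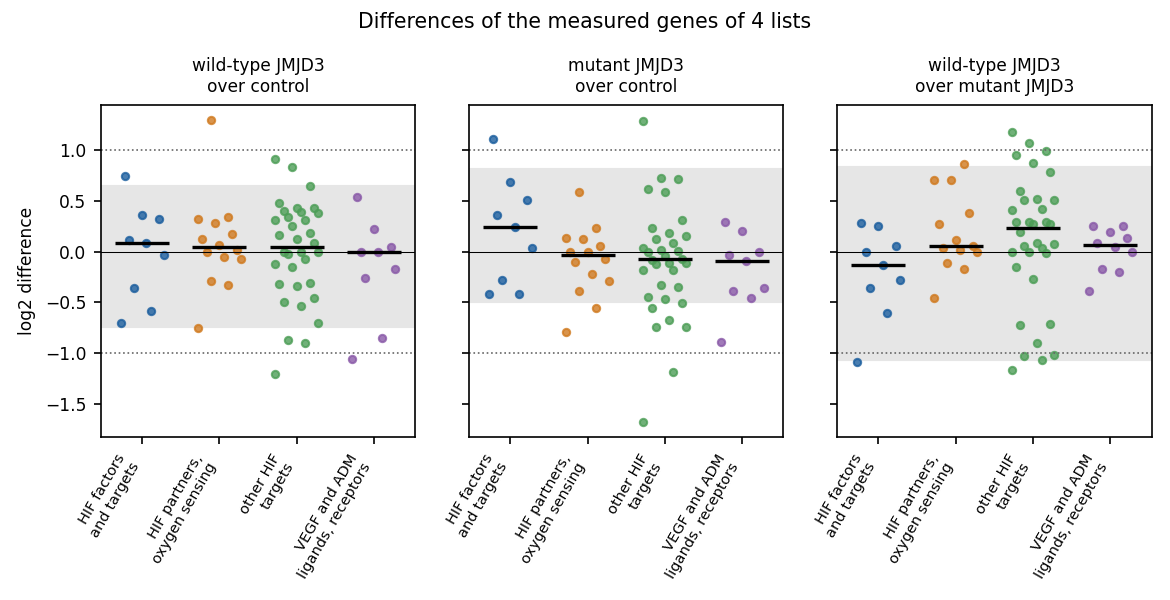
Log2 difference (vertical axis) of each measured gene (points) in 4 gene lists (horizontal axis), in the 3 comparisons. Black bars are list medians, the grey band holds the middle 90 percent of all measured genes and dotted lines mark 2-fold. Medians of the HIF factors and targets are 0.09, 0.24 and -0.13 from left to right, and the wider HIF target set spreads furthest, from -1.68 to 1.29 in mutant over control.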

How the data were processed

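Per the submitters' processing notes the arrays were summarised with MAS5, the Affymetrix signal algorithm, whose settings and any normalization between arrays are not given in the sources used here. The deposited values are on a log2 scale, from 2.42 to 14.94, and the sorted columns differ by at most 0.14. A signal over the floor need not mean that the transcript was present, since no detection calls were used. Gene names came from the platform annotation (41091 with 1 symbol, 1801 with several, 11721 not listed), with gene identifiers matched to RefSeq. The gene, floor and 2-fold rules are given with the results. Differences are of floored log2 values, and folds are 2 raised to them.

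Every hypoxia gene is named with all its probe sets. From each other list the rule takes up to 4 genes with the largest difference per comparison. STC2, VHL, KDM3B, KDR, CALCRL, CDH1, MUC1, the markers under the floor and further probe sets of listed genes were added after their values were seen. The genes and lists were chosen with earlier results of these data known. The calculation was tested on simulated data. Alternatives were 2 scalings, 3 treatments of dim signals, the median over probe sets, leaving out shared probe sets (_s_at, _x_at) and 1.5-fold. Tables were computed in Python 3.11.15 (pandas 2.3.3, numpy 2.4.6) and drawn with matplotlib 3.10.9.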

Additional observations from a re-analysis of the deposited data

How the results depend on the processing

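No paired analysis was possible because each line has 1 array, and no replicate could be left out for the same reason. Under the 2 scalings and the offset, HIF1A in wild-type over mutant stayed past 2-fold, between -1.08 and -1.11, and EPAS1 in mutant over control between 1.10 and 1.14. These settings could move the values only slightly. The array medians were already 5.48 with wild-type JMJD3, 5.49 with mutant JMJD3 and 5.5 in control. Both genes also lie far over the offset. The other floors could not change these bright probe sets, nor could the probe set settings change HIF1A, which has 1. When the probe sets of a gene were summarised by their median, EPAS1 was not measured in mutant over control. There 0 of 8 genes passed 2-fold, where 293 of all genes did. The median over the genes was 0.02, and that for wild-type over mutant turned to 0.01. Under the same setting EPAS1 turned to 0.03 in wild-type over mutant, and VEGFA to -0.01 in mutant over control and 0.01 in wild-type over mutant. Leaving out shared probe sets kept 5 genes, with medians of 0.51 for mutant over control and -0.36 for wild-type over mutant. At 1.5-fold, 2 genes passed in each of the 3 comparisons, beside 16.2%, 12.9% and 27.2% of all measured genes.

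The wider HIF targets past 2-fold numbered 2 under a floor at the 40th percentile and 7 at 1.5-fold for wild-type over control, where leaving out shared probe sets put CA12 (1 higher) in place of PLOD2 (1 lower). For mutant over control they numbered 2 with the offset (0 higher), 1 with the median over probe sets, 1 without shared probe sets and 10 at 1.5-fold. For wild-type over mutant they numbered 4 with the offset, 4 with the median over probe sets, 5 without shared probe sets and 14 at 1.5-fold. They numbered 7 there under either scaling and under the floor at the 40th percentile. Among HIF partners and sensors, 1 gene passed without shared probe sets in mutant over control and 1 with the median over probe sets in wild-type over mutant, where none had. At 1.5-fold there were 2, 2 and 3 in the order above. Over all genes, counts at 2-fold were 287, 447 and 1130, or 2.26%, 3.52% and 8.81% of measured genes. They were 141, 243 and 687 with the offset and 184, 293 and 727 with the median over probe sets. With arrays shifted to a common median they were 277, 454 and 1116, and with quantile normalization 268, 415 and 1085. Under the floor at the 40th percentile they were 310, 487 and 1175, and without shared probe sets 232, 393 and 997. Shares were not computed for these other settings. At 1.5-fold the counts were 2061, 1637 and 3495, or 16.2%, 12.9% and 27.2%. The fewer probe sets or the lower fold follow from the settings themselves, and no other cause was tested. EGLN3 lies 0.81 over the floor in control. The median over probe sets took in dim ones for EPAS1, ANKRD37, KDM3A and EGLN3. With it ANKRD37 gave 0.34 in mutant over control. In wild-type over control EPAS1 moved from 0.75 to 0.03, KDM3A from -0.70 to -0.37 and EGLN3 from 0.36 to 0.18.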
